A study of Vigna radiata with 42 samples.

Results

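In the mung bean (Vigna radiata) cultivar Weilv 9, leaves that had spent 24 h in 100 mM NaCl and then 48 h in salt-free nutrient solution were compared with leaves taken at the end of 24 h in 100 mM NaCl, to ask what recovery changes after a first salt exposure of the same length. The recovered leaves are the 3 libraries of the pre-conditioned treatment T1 at 0 h, taken as the second salt began. The salted leaves are the 3 libraries of the direct treatment T2 at 24 h. These 6 libraries were chosen by label from the 42 of the series, which follows both treatments at 7 times over 48 h of the final salt. Both groups are the first fully expanded true leaves of seedlings grown in half-strength Murashige and Skoog solution at 25 °C with 16 h of light and 8 h of dark. Both had met salt once, for the same time and at the same strength. The labels do not say whether the first salt of T1 and the salt of T2 began at the same seedling age. If they did, the recovered plants were 48 h older. With another timing the difference in age is unknown and may run the other way. Recovery and age therefore cannot be told apart. Each library is called a replicate, and the labels do not say how many plants went into it. Poly(A) RNA was sequenced on the DNBSEQ platform, and 1 value per gene and library was deposited. Of 28740 gene IDs, 17852 (62.1%) reached a value of 1 in 3 or more of the 6 libraries and were tested.

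Salt in the root medium limits water uptake within minutes to hours and loads leaves with sodium and chloride over days. Leaves answer with closure of stomata, accumulation of compatible solutes, ion transport into vacuoles and broad changes in transcription, many of which run through the hormone abscisic acid. When salt is withdrawn, osmotic stress ends quickly, while ions already in the leaf are lost slowly. Transcripts may therefore return, stay displaced or pass beyond their starting level, and which of these a gene does is the subject of work on recovery and stress memory. The deposited IDs carry no gene names, and 0 of them matched the RefSeq gene list for Vradiata_ver6, so genes are described by ID, level and course, and no function is given to any of them. In whole leaves, fewer cells of a type and less RNA per cell cannot be told apart.

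The 3 salted libraries were alike, and the 3 recovered libraries were not. Pearson's r of log2(value + 1) over the tested genes was 0.983 to 0.988 between salted libraries. Recovered replicates 1 and 3 correlated at 0.981, but replicate 2 correlated with them at only 0.915 and 0.913. Replicate 2 was closer to the T2 leaves at 0 h, which had never been in salt (mean r 0.970), than to its own group (0.914) or to the salted group (0.931). In 2296 genes replicate 2 lay at least 2-fold from the mean of replicates 1 and 3, against 93 to 149 genes for any salted library set against its own pair. The median within-group SD of a gene was 0.25 in the recovered group, the highest of the 14 groups, and 0.12 to 0.18 in the others. Why it stands apart was not tested, and its label and handling could not be checked from these data, so every recovered mean that includes it carries this doubt. Total counts of called genes, overlaps and list medians are given below with and without it, and single genes by library. Counts of called genes within a list include it. Salted replicate 2 held 2.50% of its signal in IDs of the Pt prefix, against 0.185% to 0.282% in the other 5 libraries.

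Recovery was accompanied by differences in many of the expressed genes, with more genes lower than higher as the values were deposited. Differences between the groups were called in 4947 of 17852 genes (27.7%; limma, adjusted p under 0.05): 2015 genes (11.3%) were higher after recovery and 2932 (16.4%) were lower. Of these, 564 (3.16%) rose and 611 (3.42%) fell by 2-fold or more relative to salted leaves. The test shared 1 estimate of spread over the 14 groups, which is smaller than the spread of the recovered group itself. A fit to the 6 libraries alone called 1192 genes, 304 of them higher and 371 lower by 2-fold or more. Without recovered replicate 2 the count was 6695, with 859 genes higher and 887 lower by 2-fold or more, and with replicate 2 standing alone for recovery it was 2865. A value for replicate 2 alone takes its spread from the other groups, so a call lost there is no evidence against a difference. Of the 564 and 611 genes, 406 and 453 were called in the same direction whichever of the 6 libraries was left out. Scaling set the balance: as deposited, 40.7% of the called genes were higher after recovery, but 50.6% were after median-of-ratios scaling and 17.2% with every library brought to a total of 1000000, which moved the median difference of all genes from -0.04 to -0.21 on the log2 scale.

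Separation of the single libraries followed these calls. Both rest on the same libraries, so the separation describes these genes and is no further support. Of the 564 genes, 499 had all 3 recovered libraries above all 3 salted ones, and of the 611 genes, 541 had them all below. Over all tested genes, whether called or not, 13.9% were separated upward and 18.8% downward. In the remaining 65 and 70 genes at least 1 library crossed over. Without replicate 2, 852 of the 859 genes and 887 of the 887 were separated, where 25.2% and 35.9% of all genes were. In the 564 genes the median difference of replicate 2 from the salted mean was 0.98 on the log2 scale, against 1.65 for replicates 1 and 3 together, and in the 611 genes it was -1.21 against -1.49. These genes were called from a mean that includes replicate 2, so these medians describe them and show nothing of how far replicate 2 moved in general.

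**Figure D1:**
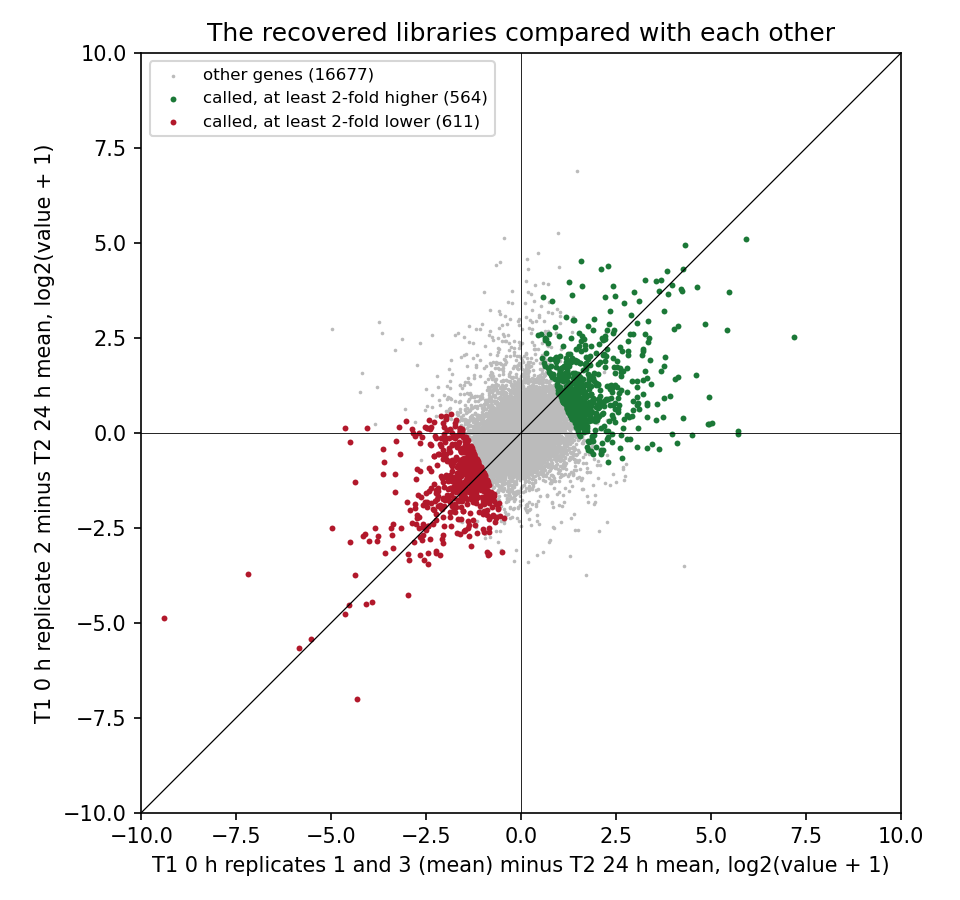
Difference of each tested gene from the mean of the 3 salted libraries (T2 24 h), on the log2(value + 1) scale, in recovered (T1 0 h) replicates 1 and 3 (mean, horizontal) and in recovered replicate 2 (vertical); the line marks equality. Genes called and at least 2-fold higher (564) or lower (611) are coloured; they were chosen on the mean of all 3 recovered libraries, which fixes where they can lie, and their medians are 0.98 and -1.21 in replicate 2 against 1.65 and -1.49 in replicates 1 and 3.

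The genes lower after recovery were led by transcripts that stood at high levels in salted leaves and near or below their never-salted level in most libraries after 48 h without salt. Virad09G0107700 read 9009, 6520.1 and 10119 in the salted libraries, and 3.98, 283 and 29.6 in recovered replicates 1, 2 and 3. The groups were far apart, while the recovered libraries themselves differed by a wide factor. The log2 difference was -7.90 (SE 1.08, adjusted p = 3.38e-06), and it was -9.41 without replicate 2. The never-salted T2 leaves at 0 h were at 40.8 ± 55.2 (SD, n = 3), inside the range of the recovered libraries.

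Virad02G0005000 held nearly the same level in every salted library, at 399, 406 and 390.2, and read 1.22, 29.4 and 2.31 after recovery. Replicates 1 and 3 lay well below the never-salted level of 35.7 ± 10.1 (SD, n = 3), and replicate 2 lay close to it. The log2 difference was -6.04 (SE 0.57, adjusted p = 8.42e-09), or -3.72 with replicate 2 alone. Virad05G0197700 read 164, 151 and 317 in salt and 8.32, 0.56 and 9.52 after recovery. Here replicate 2 was the lowest of the recovered libraries, and replicates 1 and 3 stood above the never-salted level of 1.19 ± 0.42 (SD, n = 3). Its difference of -5.22 (SE 0.63, adjusted p = 4.79e-07) became -4.33 without replicate 2.

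Several of these genes were close to silent both before and after salt. Virad09G0060300 read 29.3, 16.3 and 41.9 in the salted libraries and 0.133, 0.042 and 0.13 in the recovered ones. All 3 recovered libraries, replicate 2 included, sat at the never-salted level of 0.0887 ± 0.0455 (SD, n = 3), and the log2 difference was -4.68 (SE 0.46, adjusted p = 1.15e-08). Virad08G0149600 read 92, 28.6 and 130 in salt and 0.426, 0.394 and 0.07 after recovery, and Virad10G0244300 read 24.5, 19.2 and 36.5 in salt and 0.114, 0.169 and 0.187 after recovery. With Virad11G0008600 these 3 are the 4 IDs with at least 5 in every salted library and under 0.5 in every recovered one, a criterion chosen after the values were seen.

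The courses of these genes differed, although all were low after recovery. Virad09G0060300 was a transcript of the 24 h samples: its group means were 29.2 in T2 and 56.5 in T1 at 24 h, but 1.14 and 2.41 at 48 h and at most 2.21 at every earlier time. Virad06G0162000 had the same course, at 263 and 298 at 24 h, 2.27 and 2.33 at 48 h and at most 7.14 at every earlier time. It read 227, 137 and 427 in the salted libraries and 10.2, 4.48 and 1.37 in the recovered ones. Virad10G0244300 was up at every salted time, with means from 19.1 to 105 over the 12 salted groups. Virad03G0145200 likewise ranged from 57.6 to 295 in salt, against 57.1, 48 and 67.8 in the salted libraries compared here and 1.25, 3.33 and 2.50 in the recovered ones.

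The other genes among the 12 largest decreases were Virad07G0326900, Virad09G0172400, Virad08G0211500 and Virad06G0114200, with log2 differences of -4.22, -4.16, -4.11 and -3.96. In all 12 every recovered library lay below every salted one, which the choice of these genes required. Virad07G0326900 was even within both groups, at 168, 161 and 175 in salt and 5.51, 6.43 and 14.4 after recovery. Virad09G0172400 was less even, with recovered replicate 2 at 4.77 and replicates 1 and 3 at 0.08 and 0; with replicate 2 alone its difference was -2.51 (adjusted p = 0.0528).

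**Figure D2:**
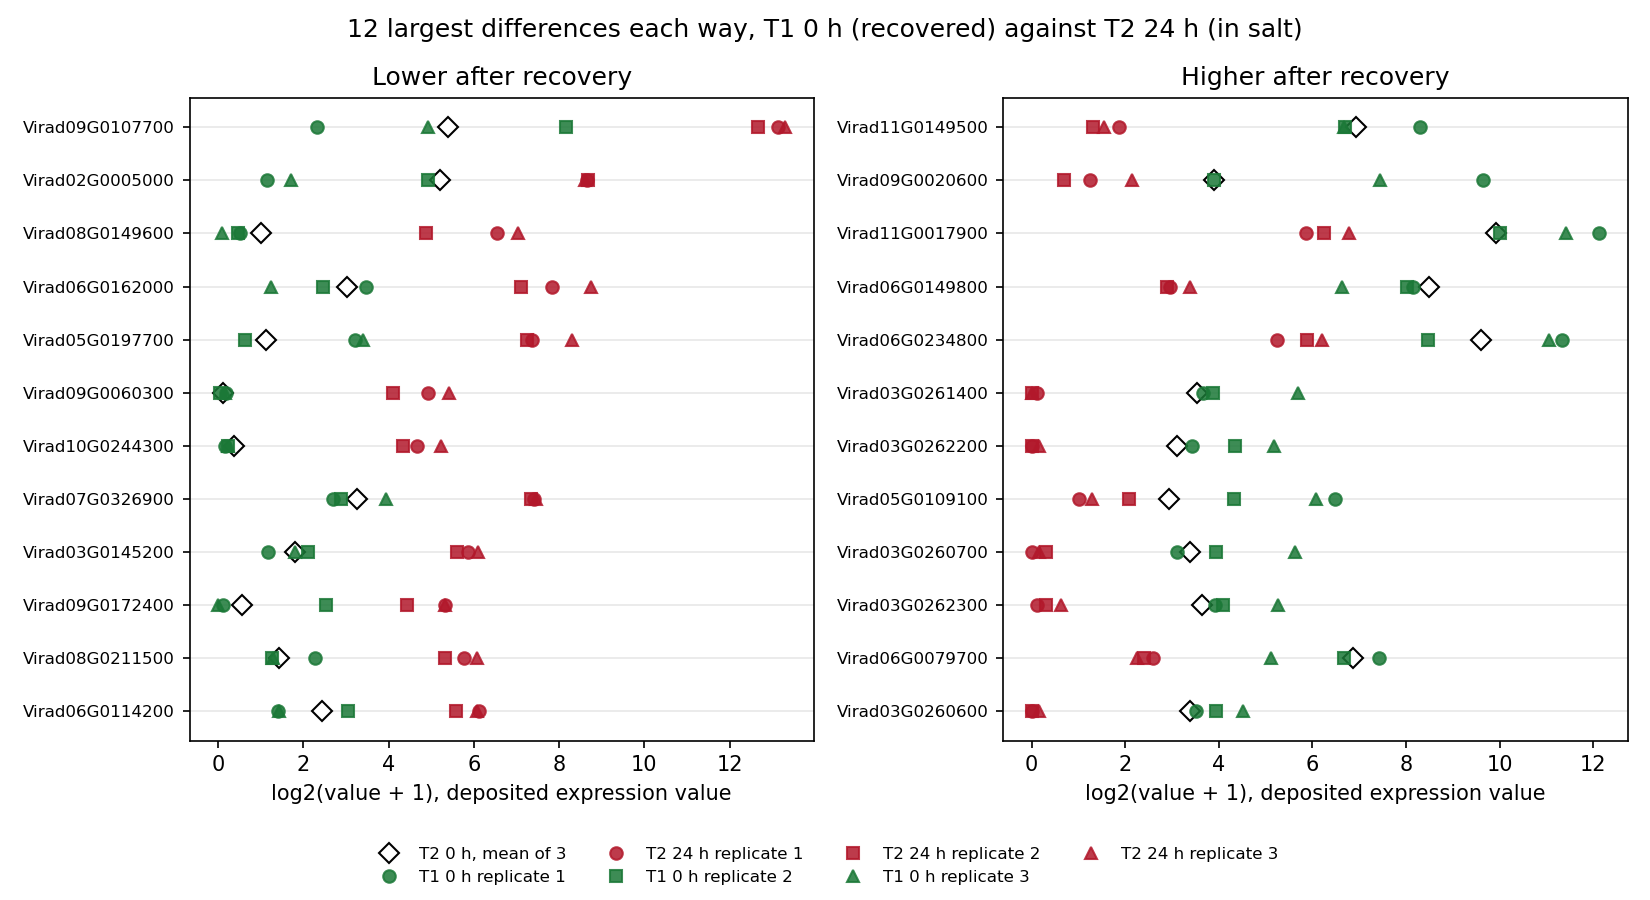
log2(value + 1) of the 12 genes with the largest called decreases (left) and increases (right) after recovery, in each recovered library (T1 0 h, green), each salted library (T2 24 h, red) and as the mean of the never-salted leaves (T2 0 h, open diamond). Green and red do not overlap in any row. Recovered replicate 2 (green square) stands apart from replicates 1 and 3 in several rows. Among them are Virad02G0005000, Virad05G0197700, Virad09G0172400, Virad09G0020600, Virad11G0017900, Virad06G0234800 and Virad05G0109100.

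Among the genes higher after recovery, some had nearly vanished in salt and stood again near their never-salted level in some but not all recovered libraries. Virad11G0149500 read 2.66, 1.47 and 1.93 in the salted libraries and 315, 102 and 101 in recovered replicates 1, 2 and 3. All 3 recovered libraries were far above the salted ones. Replicates 2 and 3 lay within an SD of the never-salted level of 120 ± 20.4 (SD, n = 3), and replicate 1 lay well above it. The log2 difference was 5.64 (SE 0.58, adjusted p = 3.01e-08), and it was 5.91 without replicate 2; for Virad06G0149800 and Virad06G0079700, of the same kind, it was 4.53 and 3.98, or 4.32 and 3.85 without replicate 2. Virad06G0149800 read 6.77, 6.42 and 9.45 in salt, and 285, 259.5 and 98.1 after recovery, with 358 ± 163 (SD, n = 3) in never-salted leaves. Virad06G0079700 read 5.07, 4.31 and 3.77 in salt, and 171, 101 and 33.7 after recovery, with 115 ± 41.8 (SD, n = 3) in never-salted leaves. At 24 h of the second salt the means of Virad11G0149500, Virad06G0149800 and Virad06G0079700 were 5.06, 12.2 and 7.28.

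Other genes stood above the never-salted level in recovered replicates 1 and 3, and replicate 2 was the lowest recovered library. Virad11G0017900 read 57.6, 74.7 and 109 in salt, and 4473, 1031 and 2746 after recovery. Replicate 2 lay at the never-salted mean of 976 ± 355 (SD, n = 3), and replicates 1 and 3 were several times higher. The log2 difference was 4.89 (SE 0.84, adjusted p = 7.23e-05), or 5.48 without replicate 2. Virad06G0234800 read 36.8, 57.9 and 73.3 in salt, and 2563, 356 and 2116 after recovery, against 777 ± 87.7 (SD, n = 3) in never-salted leaves. Its difference was 4.51 (SE 0.55, adjusted p = 5.44e-07), and replicate 2 alone gave 2.70. Virad05G0109100 read 1.01, 3.20 and 1.43 in salt and 88.9, 19.1 and 66.6 after recovery, so that all 3 recovered libraries were above the never-salted level of 6.65 ± 2.27 (SD, n = 3).

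Virad09G0020600 had the largest SE of the 12 increases. It read 804, 13.9 and 174 in recovered replicates 1, 2 and 3, against 1.37, 0.608 and 3.45 in salt and 13.9 ± 19.1 (SD, n = 3) in never-salted leaves. The log2 difference was 5.64 (SE 1.34, adjusted p = 0.00207), but 2.53 (adjusted p = 0.329) with replicate 2 alone and adjusted p = 0.0608 in the fit to the 6 libraries. Its mean was 1972 ± 2199 (SD, n = 3) in T1 at 24 h of the second salt, and no group mean in T2 was above 43.3.

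The remaining 5 of the 12 increases belong to a single stretch of neighbouring IDs, which was examined after the values were seen and is described without a test of its own. From Virad03G0260400 to Virad03G0262600 the table lists 23 IDs, all of them tested, and 18 were called at least 2-fold higher after recovery; the share over all genes was 3.16%. The differences of the 18 ran from 1.77 to 4.36 on the log2 scale, with a median of 3.54, and in all 18 the 3 recovered libraries lay above the 3 salted ones. Virad03G0261400, with the largest difference, read 11.6, 13.6 and 50.3 after recovery and 0.085, 0 and 0 in salt. Virad03G0261300 read 6.34, 15.3 and 21.3 after recovery and was listed at 0 in every salted library. The 8 IDs of the whole table with at least 5 in every recovered library and under 0.5 in every salted one all lay in this stretch.

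The 18 IDs moved together from library to library, so they are not 18 separate results. Their median value was 9.83, 15.3 and 28.8 in recovered replicates 1, 2 and 3, and 0.213, 0.236 and 0.456 in the salted libraries. In never-salted leaves it was 0.637, 20.9 and 2.57, so that replicate 2 there was as high as recovered leaves and replicates 1 and 3 were not. At 3 h of direct salt the median was 19.6, 131 and 4.4. The directly salted libraries were low from 6 h on, with median values of 0.198 to 1.54 in the 12 T2 libraries at 6, 12, 24 and 48 h. In T1 the values were higher at these times: the median over the 18 group means was, in order of time, 62.9, 30.7, 16.8 and 6.87, against 1.07, 0.551, 0.269 and 0.375 in T2. Single libraries again differed, from 7.38 to 114 among the 3 at T1 6 h.

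The 5 other IDs in the stretch were not called. Virad03G0260800, Virad03G0261700 and Virad03G0262400 were low in both groups, with log2 differences of 0.11, 0.14 and 0.70 (adjusted p = 0.879, 0.813 and 0.0974). Virad03G0261800 and Virad03G0262500, each the ID after one of these, had differences of 1.46 and 1.40 (adjusted p = 0.178 and 0.156). Their means in salted leaves, 9.21 ± 4.55 and 7.36 ± 2.75 (SD, n = 3), were above those of all the 18. Virad03G0260900, which follows Virad03G0260800, had the smallest difference of the 18, at 1.77 (adjusted p = 0.0453). If the IDs include near-identical copies, reads may have been divided among them, and their single values are uncertain to that extent. Left-out libraries gave 14 to 18 IDs called at least 2-fold higher, the 6-library fit gave 19, and replicate 2 alone gave 6.

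**Figure D3:**
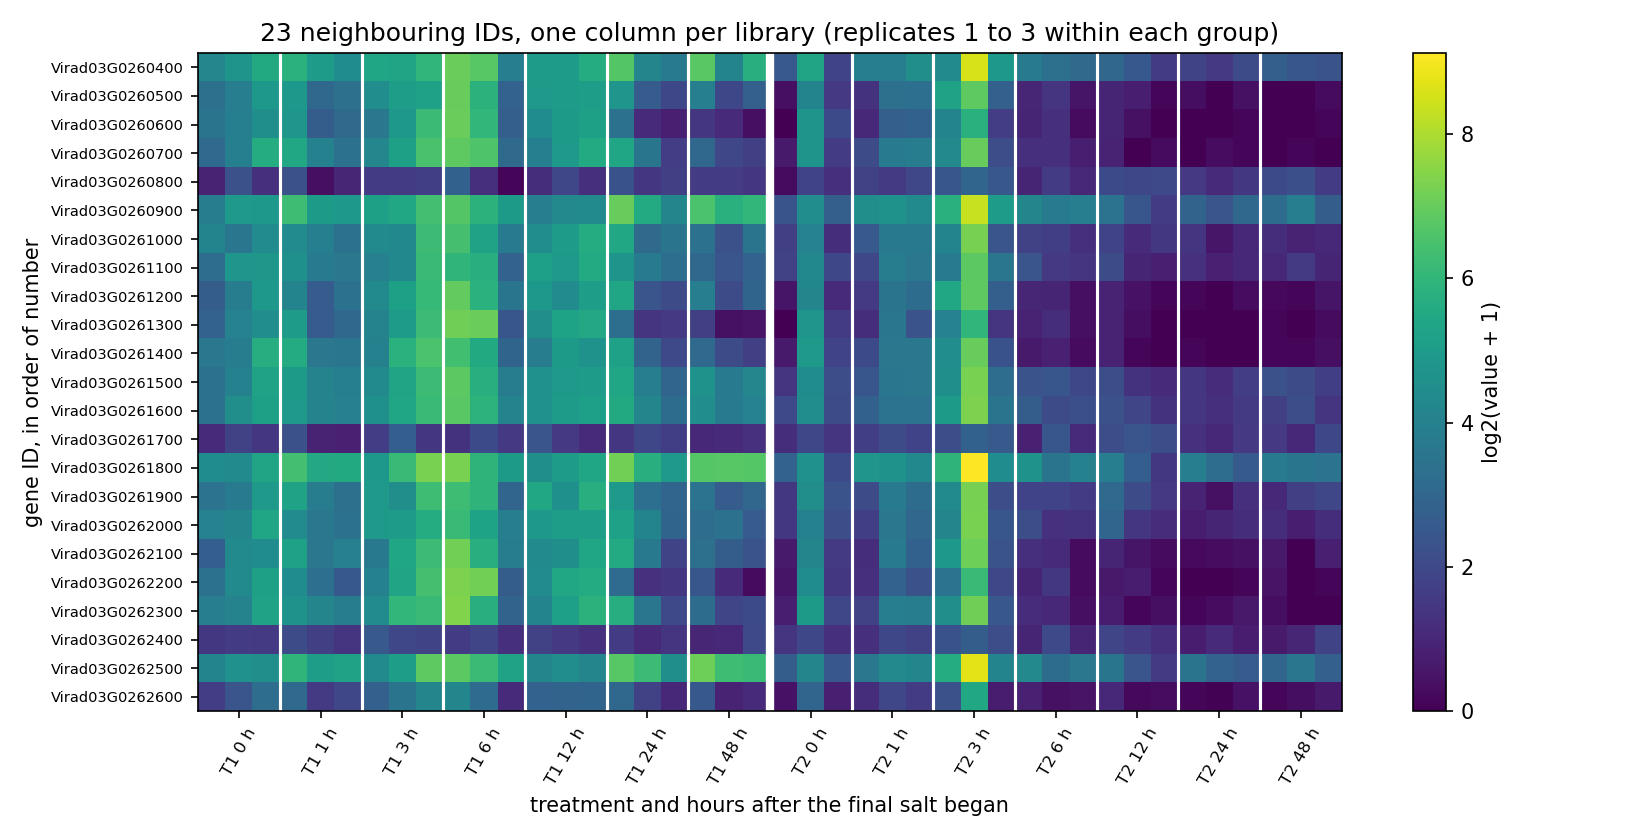
log2(value + 1) of the 23 neighbouring IDs from Virad03G0260400 to Virad03G0262600 (rows, in order of number) in all 42 libraries (columns, grouped by treatment and hours, replicates 1 to 3 within each group; the broad line divides T1 from T2). In the 18 called rows T1 0 h is brighter than T2 24 h in all libraries, and T2 0 h and T2 3 h are brightest in replicate 2; Virad03G0260800, Virad03G0261700 and Virad03G0262400 stay dark in nearly all libraries, and Virad03G0261800 and Virad03G0262500 are brighter than the others in T2 24 h on average.

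The most abundant transcripts differed as well, by smaller factors. Of the 10 genes with the highest mean over the 6 libraries, 5 were higher after recovery and 1 was lower, where 11.3% and 16.4% of all genes were. With every library at a total of 1000000 the call of Virad03G0230800 was lost (adjusted p = 0.166) and Virad04G0209900 was called lower (-0.53, adjusted p = 0.00583). Virad05G0065500 read 63275, 22963 and 50388 in recovered replicates 1, 2 and 3, and 12540.3, 14688 and 16035 in salt; its ID neighbour Virad05G0065400 read 53099, 18521 and 43154, and 10109, 11708 and 12751. In both, replicate 2 was the lowest recovered library, yet above every salted one, and it lay within an SD of the never-salted means of 23202 ± 5422 and 18716 ± 4649 (SD, n = 3). The log2 differences were 1.54 (SE 0.29, adjusted p = 0.000214) and 1.60 (SE 0.31, adjusted p = 0.000253). In the fit to the 6 libraries neither was called (adjusted p = 0.0671 and 0.0669).

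Virad07G0035200 was even across the recovered libraries, at 37560.3, 44212 and 42312, and lower but less even in salt, at 12524, 23482 and 17339. Its difference was 1.26 (SE 0.39, adjusted p = 0.0156), but 0.23 (adjusted p = 0.735) after quantile normalization. The never-salted leaves were at 45457 ± 6654 (SD, n = 3). Virad03G0301900 and Virad03G0230800 differed by 0.60 and 0.44 (adjusted p = 0.0167 and 0.0423). In the 6-library fit neither was called (adjusted p = 0.0888 and 0.197). Virad03G0230800 lost its call in 13 of 21 alternatives and Virad03G0301900 in 4.

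Virad09G0155100 was the only one of the 10 called lower, and its libraries overlapped. It read 5736, 23090 and 6662 in recovered replicates 1, 2 and 3, against 20483, 31132 and 25905 in salt. Replicate 2 stood near the never-salted mean of 28881 ± 4344 (SD, n = 3) and replicates 1 and 3 far below it. The difference was -1.41 (SE 0.44, adjusted p = 0.0174); it was -2.04 without replicate 2 and -0.14 (adjusted p = 0.888) with replicate 2 alone, and in the 6-library fit it was not called (adjusted p = 0.168). The other 4 of the 10, Virad01G0113200, Virad01G0190700, Virad04G0209900 and Virad09G0099700, had differences of -0.59, -0.03, -0.34 and 0.56, with adjusted p from 0.134 to 0.922. After quantile normalization Virad01G0113200 was called lower, at -1.07 (adjusted p = 0.0119).

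Judged by the difference in mean value, the largest decreases after Virad09G0107700 and Virad09G0155100 were seen in all 3 recovered libraries. Virad09G0112100 read 2934, 2420 and 2772 after recovery and 8953, 7926 and 11814 in salt, with 2327 ± 407 (SD, n = 3) in never-salted leaves. Virad06G0219500 read 552, 302 and 672 after recovery and 3291, 2826 and 4015 in salt, with 313 ± 50.5 (SD, n = 3) in never-salted leaves. Replicate 2 was at the never-salted level in both genes, and replicates 1 and 3 of Virad06G0219500 were above it. The differences were -1.80 (SE 0.20, adjusted p = 1.69e-07) and -2.79 (SE 0.25, adjusted p = 3.65e-09). Virad08G0395800 differed by -1.77. The largest increases beyond the 3 abundant genes above were Virad08G0322700, at 10289, 6636 and 8785 after recovery against 2420.2, 3468 and 2521 in salt, and Virad07G0171000, at 8687, 5623 and 8130.2 against 3470.5, 4480 and 3876. Their differences were 1.61 (SE 0.31) and 0.91 (SE 0.17), and in the 6-library fit the second was not called (adjusted p = 0.0644).

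The T1 leaves at 24 h of the second salt and the never-salted T2 leaves at 0 h share no library with the 6 compared here. They were used to ask whether the same genes differ between those groups, which are set apart by first salt, recovery and second salt together. Plant age may differ between those groups too. Genes lower after recovery were more often higher than lower in those salted leaves. That comparison called 37.4% of all genes. Of the 611 genes, 324 (53.0%) were higher in T1 at 24 h than in never-salted leaves and 63 (10.3%) were lower, where 18.3% and 19% of all genes were. Their median difference there was 0.75, against -0.01 over all genes. Of the 564 genes higher after recovery, 215 (38.1%) were lower there and 48 (8.51%) were higher, with a median of -0.47. The 324 and 215 genes are 9.91% of the 3270 genes higher and 6.33% of the 3399 genes lower in that comparison. Across all 17852 genes, which are not independent replicates, the 2 sets of differences had Pearson's r = -0.296 and Spearman's rho = -0.286.

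This opposition was much smaller without recovered replicate 2. Of the 887 genes then at least 2-fold lower after recovery, 316 (35.6%) were higher in T1 at 24 h than in never-salted leaves and 197 (22.2%) were lower, where 20.3% and 21% of all genes were. Of the 859 genes then at least 2-fold higher after recovery, 245 (28.5%) were lower there and 189 (22.0%) were higher. The median differences of these sets there were 0.16 and -0.07, and r and rho across genes were -0.0831 and -0.0811.

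Other salted times were set against never-salted leaves in the same way. At 48 h of direct salt 335 (54.8%) of the 611 genes were higher and 68 (11.1%) lower, where 21.6% and 21.7% of all genes were, and 264 (46.8%) of the 564 were lower and 22 (3.90%) higher. At 12 h, 318 (52.0%) of the 611 were higher, with 24.3% over all genes, and 326 (57.8%) of the 564 were lower, with 26.7% over all genes. At 48 h of the second salt, 344 (56.3%) of the 611 were higher and 290 (51.4%) of the 564 lower, against 29.2% and 28.4% of all genes. At 1 h the shares were smaller, at 209 (34.2%) of the 611 higher and 117 (20.7%) of the 564 lower, against 15.1% and 13.8%. With replicate 2, 12.9% of the 611 genes were also lower at 12 h, and 3.19% of the 564 were also higher. At 48 h of the second salt these shares were 13.7% and 9.75%, and at 1 h 3.27% and 8.87%. Without replicate 2 the shares opposed to the recovery difference were smaller at each of these times, and the shares alike were larger. Of the 887 lower genes 40.4% were then higher and 24.5% lower at 48 h of direct salt, and 40.7% and 21.8% at 12 h. At 48 h of the second salt 41.0% of them were higher and 29.0% lower, and at 1 h 29.2% and 8.57%. Of the 859 higher genes 35.4% were lower and 16.6% higher at 48 h of direct salt, 49.4% and 12.9% at 12 h, 37.8% and 24.9% at 48 h of the second salt, and 18.5% and 16.6% at 1 h. The shares of all genes higher and lower were then 23% and 23.3%, 25.4% and 28.4%, 30.4% and 29.9%, and 16.6% and 15.8%. These 4 comparisons and that of T1 at 24 h all use the same T2 libraries at 0 h and are not independent of each other. The labels give no clock time of sampling. Under 16 h of light and 8 h of dark, leaves at 1 h and 12 h may differ from those at 0 h in time of day. Salt and time of day cannot be told apart at those times.

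**Figure D4:**
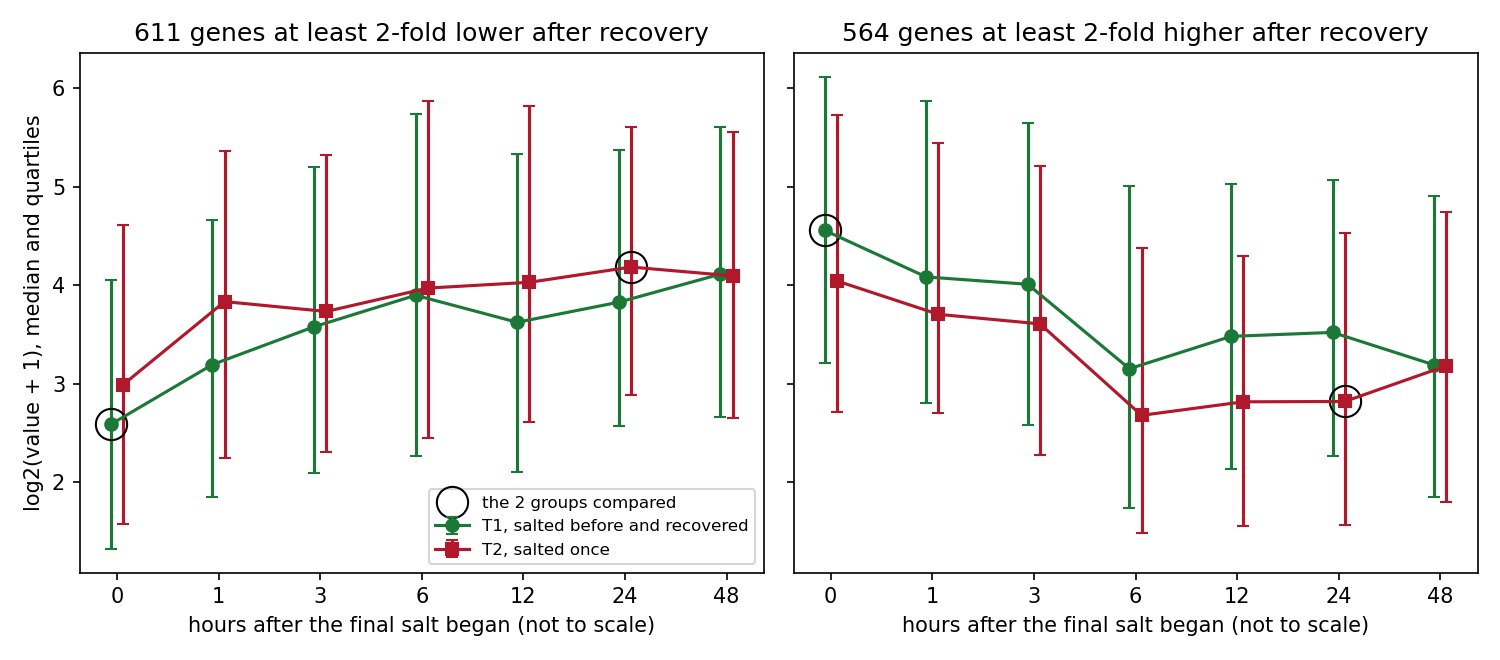
Median (points) and quartiles (bars) over genes of the group mean log2(value + 1), for the 611 genes at least 2-fold lower and the 564 at least 2-fold higher after recovery, along T1 (green) and T2 (red); hours are not to scale. The circled groups chose the genes, and the T1 0 h means include replicate 2, whose medians over the lower and higher sets are 2.80 and 4.17, against 2.46 to 2.48 and 4.80 to 4.99 in replicates 1 and 3; the lower set stands at 2.59 and 4.18 there and at 2.99 in never-salted leaves, and the higher set at 4.56 and 2.82 there and at 4.04 in never-salted leaves.

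The reverse question was where the genes that differed between T1 at 24 h and T2 at 0 h stood after recovery. The answer differed between libraries. The list of 833 genes (4.67%) at least 2-fold higher in T1 at 24 h than in T2 at 0 h comes from a difference between libraries that are not among the 6 compared, although these 6 set which genes were tested and entered the estimate of spread (855 genes without recovered replicate 2, 886 with no filter on low values). After recovery 305 of them (36.6%) were lower than in salted leaves and 46 (5.52%) higher, against 16.4% and 11.3% of all genes, and their median difference was -0.48. The list of 874 genes (4.9%) at least 2-fold lower there had 263 (30.1%) higher and 59 (6.75%) lower after recovery, with a median of 0.36. The remaining 482 and 552 genes of the lists were not called. These counts of calls include recovered replicate 2.

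Most of that displacement lay in 1 library. The median log2(value + 1) of the 833 genes was 3.65, 3.46 and 3.74 in the salted libraries, and 3.31, 2.51 and 3.43 in recovered replicates 1, 2 and 3. Replicate 2 fell within the never-salted libraries, at 2.73, 2.44 and 2.31, and replicates 1 and 3 lay below all salted libraries but much nearer to them. The 874 genes mirrored this. Their median was 3.82, 4.03 and 3.85 in salt, 4.07, 4.92 and 4.0 in recovered replicates 1, 2 and 3, and 4.83, 4.87 and 5.10 in never-salted leaves. For them recovered replicate 3 lay below salted replicate 2, so the groups overlapped. Without replicate 2 the median differences of the lists were -0.20 and 0.07, and with replicate 2 alone they were -1.04 and 0.89.

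**Figure D5:**
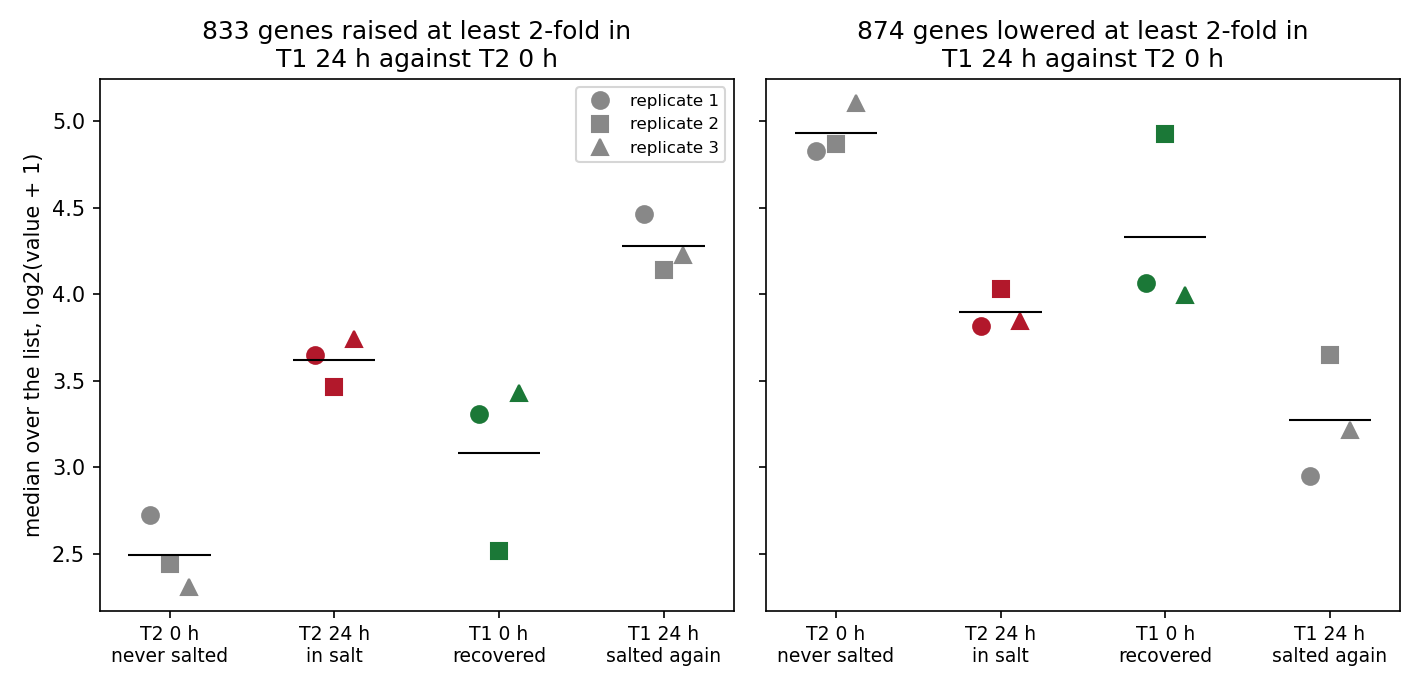
Median log2(value + 1) over 833 genes raised (left) and 874 genes lowered (right) at least 2-fold in T1 24 h against T2 0 h. Each point is a library, and the line is the group mean. The grey groups gave the differences that chose the lists. The coloured groups gave none of these differences, but they set which genes were tested and entered the estimate of spread. In both panels recovered replicate 2 (green square) lies at the never-salted level, and recovered replicates 1 and 3 lie close to the salted libraries (red).

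Several genes with the largest differences between T1 at 24 h and never-salted T2 leaves at 0 h were divided in this way. That difference spans first salt, recovery and second salt, and plant age may differ, so it does not measure the second salt alone. Besides Virad09G0107700 and Virad09G0020600, the 5 most raised in T1 at 24 h include 3 nearby IDs: Virad07G0204500, Virad07G0204800 and Virad07G0205100. Virad07G0204500 read 156, 11.9 and 86.9 in recovered replicates 1, 2 and 3, and 126, 104 and 182 in the salted libraries. Replicate 2 was at the never-salted level of 9.59 ± 8.55 (SD, n = 3), and replicates 1 and 3 were within or near the salted range. The difference of -1.26 was not called (SE 0.85, adjusted p = 0.283). Virad07G0204800 and Virad07G0205100 gave 0.53 and -0.49, also not called (adjusted p = 0.692 and 0.709). In the second salt the 3 IDs reached 2277 ± 1684, 808 ± 977 and 319 ± 320 (SD, n = 3).

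Among the 5 most lowered genes, recovered replicate 2 was again the high library in 3. Virad11G0031800 read 4.24, 272 and 1.35 in recovered replicates 1, 2 and 3, and 39.2, 44 and 47.7 in salt, with 134 ± 100 (SD, n = 3) in never-salted leaves. Replicates 1 and 3 lay below every salted library, and replicate 2 above them all. Its difference was -1.57 (SE 1.28, adjusted p = 0.382) with all libraries and -3.66 (adjusted p = 0.0146) without replicate 2. Virad06G0252000 read 15.2, 149 and 6.33 after recovery, and 12.9, 29.4 and 9.46 in salt. Virad06G0009900 read 17.3, 218 and 18.7 after recovery, and 7.44, 15.4 and 21.7 in salt. Virad02G0074100 was even, at 24.9, 19.8 and 25 after recovery against 16.6, 18.7 and 5.58 in salt, and was not called (adjusted p = 0.221).

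For some genes of these lists the recovered and salted means were close. The 95% interval of their recovered minus salted difference lay inside -1 to 1 on the log2 scale. These intervals use the spread shared over all groups, which is smaller than that of the recovered group, so they are likely too narrow. The 4 most raised of these were Virad10G0166700, Virad04G0044300, Virad03G0221400 and Virad06G0186800, with differences from -0.16 to 0.04. Virad03G0221400 read 37.9, 15.2 and 62.1 in recovered replicates 1, 2 and 3, and 24.1, 27.1 and 51.3 in salt, while never-salted leaves were at 11.1 ± 0.562 (SD, n = 3). Replicates 1 and 3 stood within or above the salted range and replicate 2 just above the never-salted level, so that the small mean difference is a balance between them. The 4 most lowered, Virad02G0018600, Virad10G0014700, Virad03G0015600 and Virad06G0223700, had differences from -0.15 to 0.10. In Virad06G0223700 the recovered libraries were at 62.9, 182 and 47.5, the salted at 78.6, 108 and 75, and the never-salted at 168 ± 57.8 (SD, n = 3). Without replicate 2, Virad10G0014700 was called lower, at -0.77 (adjusted p = 0.0417). In all 8 of these genes replicate 2 lay on the never-salted side of replicates 1 and 3. With replicate 2 alone, the differences of Virad03G0221400, Virad06G0186800, Virad02G0018600, Virad10G0014700 and Virad06G0223700 lay outside -1 to 1, and those of the others inside.

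Transcripts of the organelle genomes varied most with a single library. IDs with the Pt or Mt prefix held 0.242% ± 0.0506 of signal in recovered and 0.987% ± 1.31 in salted libraries (SD, n = 3; two-sided exact permutation test, p = 0.6, where 0.1 is the smallest p possible, so this test could not have passed 0.05), and the salted mean was 0.228% without replicate 2. Of 24 Pt IDs tested 4 were called higher and 0 lower, beside 11.3% and 16.4% of all genes, and of 3 Mt IDs 0 were called either way by limma. The number of called genes was 4204 without salted replicate 2, the library rich in Pt signal.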

How the data were processed

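Poly(A) RNA of leaves was sequenced in 42 libraries (14 groups of 3), of which 6 are compared here. The submitters' processing notes name fastp 1.0.1, HISAT2 2.2.1, featureCounts and DESeq2 1.48.2; the sources used here do not name the build, the annotation or the use of strand. The authors deposited a normalized expression signal per gene and library. The table is called TPM, as the plan assumed, but its columns sum to 783218 to 1228250, so a further scaling was applied. Reads per library are unknown, so no intervals from counts could be made.

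The comparison was made on log2(value + 1), which understates changes of genes near 0. A mean per group was fitted over all 42 libraries with limma 3.58.1 (R 4.3.3; trend, robust), for the 17852 genes with at least 1 in at least 3 of the 6 libraries. P-values are two-sided, adjusted by Benjamini-Hochberg over those genes, and called under 0.05. They measure spread between libraries within the 14 groups of the fit, which is smaller than the spread of the recovered group. Intervals are 95%. The fit was tested on simulated data with the same spread of a gene in every group. That test could not judge calls in the more variable recovered group. With 3 against 3 libraries, a permutation test of 1 gene cannot go below 0.1. Lists from T1 24 h minus T2 0 h need a call and a 2-fold difference.

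Members and lists were chosen with earlier results of these data known. Named genes were the 12 largest called differences each way with a mean of at least 5 in the higher group and no overlap; the 10 most abundant; the 5 largest called differences of means each way; the 5 largest in each list, and the 4 largest in each list whose interval lay within -1 to 1; and 4 genes printed in earlier work. Figures used Python 3.11.15, pandas 2.3.3, numpy 2.4.6 and matplotlib 3.10.9.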

Additional observations from a re-analysis of the deposited data

How the results depend on the processing

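No named gene called in the main test changed sign in the 21 alternatives. Nearly all were without overlap between groups, so leaving out libraries could not reverse them, and an unchanged sign there is no support. The call was lost in 51 of 735 gene-by-setting values, 7 in the fit to the 6 libraries and 15 with its block. The counts of genes called higher and lower were 1133 and 5455 with every library scaled to 1000000, and 1125 and 5759 when that total left out Pt and Mt genes; both shift all genes, by -0.21 and -0.22. A fit to the 6 libraries gave 1192 genes (518 higher, 674 lower; 304 and 371 at least 2-fold), and 298 (138 and 160; 136 and 156) with a replicate block. In the fit to 42 libraries the replicate block gave 4862. Equal numbers are not stated to mark a pairing: deviations of same-numbered libraries correlated at 0.0084 to 0.145, so the block is given only here. Library quality weights, 0.147 for recovered replicate 2 and 0.882 to 3.07 for the other 5, gave 7868 genes (3226 and 4642), with 874 at least 2-fold higher. Leaving out 1 library gave 3537 to 6695 genes, 1432 to 2653 higher, 2104 to 4042 lower, 440 to 859 at least 2-fold higher and 491 to 887 at least 2-fold lower; the high ends are without recovered replicate 2. Chosen after the data were seen were a fit to the 5 libraries without it, with 6055 genes (900 and 921 at least 2-fold), and replicate 2 alone, with 2865 (1203 higher, 1662 lower; list medians -1.04 and 0.89). In the 5-library fit 6 genes not called in the main test were called: Virad06G0186800 (0.56, from -0.00017), Virad07G0204800 (1.11), Virad11G0031800 (-3.66), Virad10G0014700 (-0.77), Virad06G0223700 (-0.64) and Virad09G0099700 (0.99). The organelle difference was -0.745 points of percent, and 0.0138 without salted replicate 2. With 1 library left out, the list medians ran from -0.64 to -0.20 and from 0.07 to 0.48, and the organelle difference from -1.14 to 0.0138. The causes were not tested. Unknown read depth limits what can be said of genes near 0.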

Other observations

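Beyond the stretch under the prefix Virad03, which holds 3 runs, 6 further runs of at least 3 neighbouring IDs were called at least 2-fold the same way; they were looked for after the values were seen and have no test. Virad11G0065600 to Virad11G0065900 were all lower after recovery, with no overlap between groups. Virad11G0065600 read 30.7, 28.8 and 36.4 after recovery against 131, 109 and 136 in salt, and Virad11G0065800 read 1.20, 2.85 and 2.36 against 18.3, 15.5 and 17.9. Never-salted leaves were at 27.5 and 1.43, and T1 at 24 h of second salt at 126 and 17.8. Virad10G0003300 to Virad10G0003500 and Virad08G0447300 to Virad08G0447500 were lower too, with differences from -1.34 to -1.23 and from -1.93 to -1.02.

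Virad09G0169000 to Virad09G0169300 and Virad11G0005300 to Virad11G0005500 were higher after recovery. Virad11G0005500 read 245, 121 and 151 against 23.9, 30.2 and 25.8 in salt. In Virad09G0169300 recovered replicate 2 stayed near the salted level, at 9.65 beside 46.0 and 38.0 in replicates 1 and 3 and 7.35 to 9.42 in salt.

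Virad01G0017300 to Virad01G0017500 moved as a unit of another kind. Virad01G0017400 read 186, 2.78 and 54.8 in recovered replicates 1, 2 and 3, against 2.31, 1.53 and 2.78 in salt, and the mean was 2.92 in never-salted leaves. Its group mean was 199.9 in T1 at 24 h of second salt, and at most 25.2 at any time in T2.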
